A study of Mus musculus with 12 samples.

Results

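Classical cadherins, catenins and nectins build the adherens junctions that hold hair cells and supporting cells together in the organ of Corti. The 10 genes described here are Cdh1, Cdh2, Cdh3 and Cdh4, the catenin genes Ctnna1, Ctnnb1 and Ctnnd1, and the nectin genes Nectin1, Nectin2 and Nectin3. They were taken by their GENCODE gene names from the 55416 genes in the count files. Each name matched 1 Ensembl identifier, and all 10 genes passed the filter on low counts. Their levels were compared between 6 libraries of inner hair cells (IHCs) and 6 libraries of outer hair cells (OHCs), each made from a pool of cells that fluorescence-activated sorting took from cochleae of mice at postnatal day 0 (P0). IHCs were the cells with GFP (Atoh1-GFP) and no tdTomato, and OHCs those with both, where R26-TdTomato had been switched on by Insm1-GFP-Cre, so the OHC gate rests on Cre from the Insm1 locus. The labels give the genotype of every sample as WT. The reporter alleles come from the sorting protocol, and an Insm1 GFP/Cre knock-in allele is part of the cross described in the methods. The number of pups in each RNA pool is not given in the sources used here, nor whether IHC and OHC pools with the same number came from the same pups, so the p-values measure the spread between these libraries.

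A classical cadherin is a transmembrane protein that binds a cadherin of the neighbouring cell, mostly one of its own kind. Its cytoplasmic tail holds beta-catenin and delta1-catenin, and beta-catenin in turn holds alpha-catenin, which links the complex to actin. Nectins are adhesion proteins of the immunoglobulin family that also bind nectins of another kind and reach actin through afadin. In the organ of Corti, nectin-1 of hair cells and nectin-3 of supporting cells are known for their part in the alternating mosaic of both cell types, and E-cadherin and N-cadherin are known to mark the lateral and the medial side of the epithelium.

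The IHC libraries held 31490200 to 44017300 counts on genes and the OHC libraries 29564800 to 39122000 (6 significant digits). Ribosomal RNA took 21.5% to 56.9% of them in IHC libraries and 23.4% to 36.4% in OHC libraries, with the highest share in IHC replicate 1, in which 1 CPM stood for 15.3 reads, against 29.98 to 46.4 reads in the other libraries. Levels are given as CPM, counts scaled to a library size that was normalized by the TMM method, which compares a gene between libraries but not genes of different length. As a check of the sort, 4 of 4 IHC markers (Slc17a8, Otof, Tbx2, Fgf8) were higher in IHCs and 4 of 5 OHC markers (Insm1, Bcl11b, Neurod6, Bmp2) were higher in OHCs. The remaining OHC marker, Ikzf2, averaged 8.89 ± 7.62 CPM in the IHC libraries and 6.75 ± 8.62 CPM in the OHC libraries and was not called. Insm1 is no independent check, because Cre from its locus set the OHC gate. Throughout, ± is the SD of 6 libraries, a positive log2 fold change means a higher level in OHCs, and each adjusted p comes from the quasi-likelihood test of edgeR, adjusted by the Benjamini-Hochberg method over all 13269 genes tested, with a threshold of 0.05.

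All 4 cadherin genes differed between the cell types, Cdh1 and Cdh3 being higher in OHCs and Cdh2 and Cdh4 higher in IHCs. None of the 3 catenin genes and none of the 3 nectin genes passed the threshold. Of all genes tested, 6.26% were called, 2.44% as higher in OHCs and 3.81% as higher in IHCs. The 4 called among 10 members, with 2 in each direction, stood above that share. The members were chosen with earlier results of these data known, so this is a description and no test of an excess. The same 4 genes were also the ones in which the libraries of the cell types did not overlap, an arrangement found in 4.6% of all genes tested (2.22% with OHCs above IHCs and 2.37% with IHCs above OHCs). The fitted change was above 0 in 5 of the 10 members and in 48.2% of all genes tested. By median, the log2 fold change of the 10 genes was -0.27 and that of all genes tested -0.04.

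**Figure D1:**
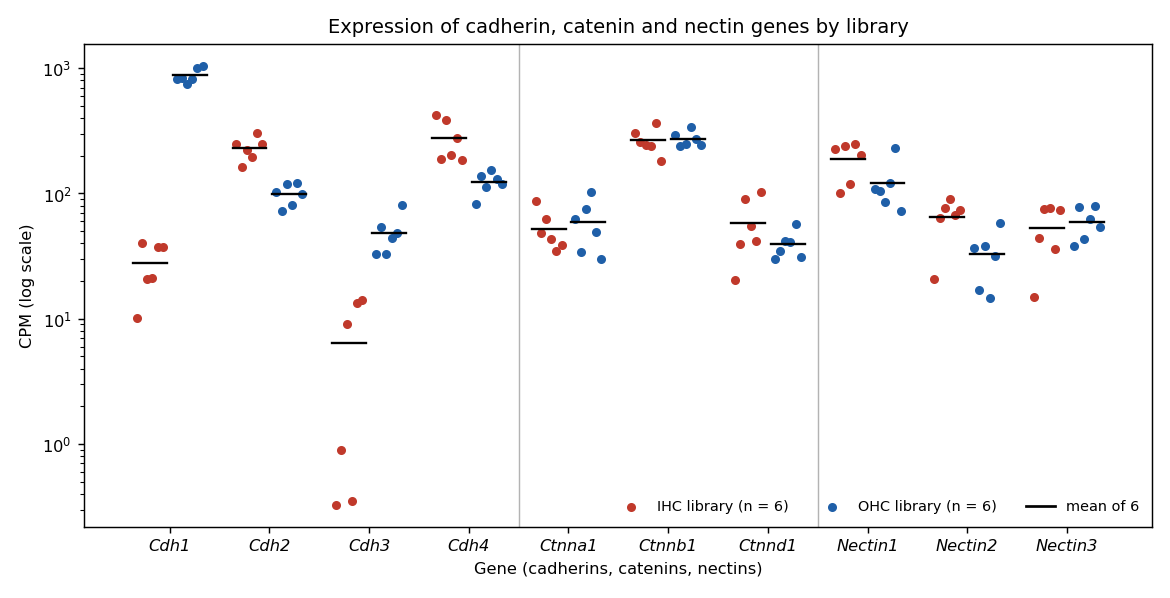
CPM of each gene on a log axis, with 1 point per library (red for IHCs, blue for OHCs, 6 each) and a black line at the mean of 6. For Cdh1, Cdh2, Cdh3 and Cdh4 the red and blue points do not overlap, whereas those of the catenins and nectins do.

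Cdh1 encodes E-cadherin, the main cadherin of most epithelia, and lies on chromosome 8 of GRCm39 from 107329941 to 107396880 on the plus strand. The IHC libraries ran from 10.1 to 40.3 CPM with a median of 29.1, and the OHC libraries from 746 to 1043 CPM with a median of 831. Every OHC library was therefore at least an order of magnitude above every IHC library. The means were 27.8 ± 12.2 CPM in IHCs and 879 ± 116 CPM in OHCs. The log2 fold change was 4.98 (standard error 0.31, 95% interval 4.33 to 5.63, edgeR quasi-likelihood adjusted p = 1.04e-08), a 31.6-fold difference. By the p-value of that test Cdh1 ranked 1 of 13269 genes. The gene was not absent from IHC libraries, which held 154 to 1650 reads of it, or 3.16% of the OHC mean. For comparison, the OHC markers Insm1, Bcl11b, Neurod6 and Bmp2 stood in IHC libraries at 0.147% to 0.624% of their OHC means. Prox1, also called as higher in OHCs, stood at 13.2%, and the OHC marker Ikzf2 had the higher mean in IHC libraries.

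Cdh3 encodes P-cadherin, another cadherin of epithelia, and is the neighbour of Cdh1 on the same strand, from 107237456 to 107283929 on chromosome 8, with 46011 bases between the genes. It was lower than Cdh1 in both cell types, averaging 6.38 ± 6.64 CPM in the IHC libraries and 48.8 ± 17.7 CPM in the OHC libraries. The IHC libraries were uneven, since replicates 1, 2 and 4 had 0.327, 0.904 and 0.353 CPM, and replicates 3, 5 and 6 had 9.13, 13.4 and 14.2 CPM. The OHC libraries ran from 32.8 to 80.7 CPM with a median of 46.3, above all 6 IHC libraries. The log2 fold change of 2.93 (standard error 0.76, 95% interval 1.33 to 4.53, edgeR quasi-likelihood adjusted p = 0.0248) corresponds to 7.62-fold, but its interval is wide. The call was lost without OHC replicate 2 and without OHC replicate 6, where the adjusted p reached at most 0.0611 and every left-out fit kept a log2 fold change between 2.67 and 3.33. Of the exonic bases of Cdh3 in the annotation used here, 11.2% overlap a gene on the opposite strand that is not among the counted genes.

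Cdh2 encodes N-cadherin, the cadherin best known from neurons and muscle, and lies on chromosome 18 from 16700793 to 16942381. The IHC libraries ran from 164 to 306 CPM with a median of 234, and the OHC libraries from 72.6 to 122 CPM with a median of 101. Even the lowest IHC library thus lay above the highest OHC library. With means of 230 ± 49.1 and 99.4 ± 20.1 CPM, the log2 fold change was -1.21 (standard error 0.21, 95% interval -1.66 to -0.76, edgeR quasi-likelihood adjusted p = 0.00151), or 2.31-fold higher in IHCs.

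Cdh4 encodes R-cadherin, first known from retina, and spans chromosome 2 from 179084201 to 179541166. It ran from 186 to 425 CPM in IHC libraries (median 241) and from 83.0 to 154 CPM in OHC libraries (median 125). The IHC spread was the wider one, with replicates 1 and 3 at 425 and 383 CPM and the other 4 libraries at 279 CPM or less, and still no library of one cell type fell among those of the other. The log2 fold change was -1.17 (standard error 0.25, 95% interval -1.69 to -0.66, edgeR quasi-likelihood adjusted p = 0.00615), 2.26-fold higher in IHCs at means of 277 ± 105 and 123 ± 24.2 CPM. The differences of Cdh2 and Cdh4 were thus of like size, and far smaller than that of Cdh1. Both genes remained well expressed in OHCs, at 43.2% and 44.3% of their IHC means, where the IHC markers Fgf8, Tbx2 and Slc17a8 stood at 3.43% to 6.36% and Otof at 21.2%.

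**Figure D2:**
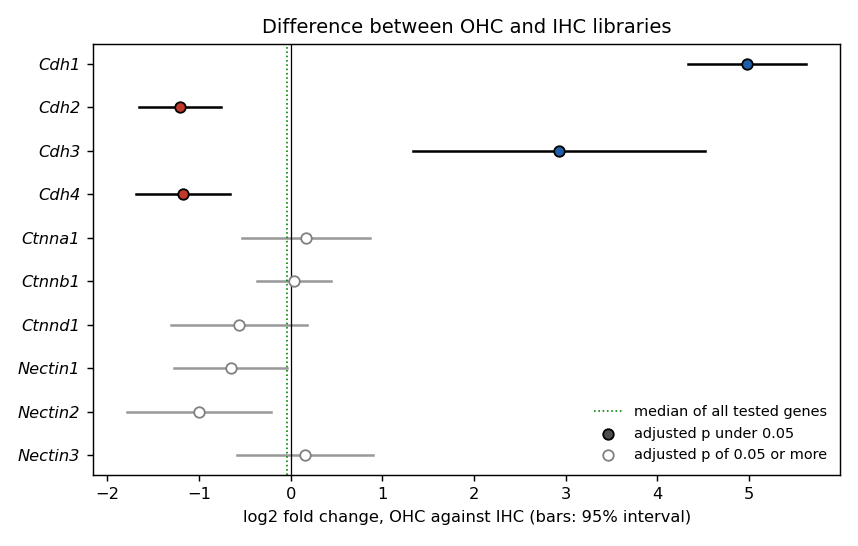
Log2 fold change of OHCs against IHCs for the 10 genes, with 95% intervals from edgeR's quasi-likelihood fit as bars. The filled points of Cdh1 and Cdh3 lie to the right of 0, those of Cdh2 and Cdh4 to the left, and the open points of the other 6 genes did not pass the threshold.

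To set the cadherin genes side by side, levels were scaled to the union of each gene's exons as TPM (transcripts per library of fixed size), and each gene was expressed as a percent of the summed TPM of the 4 genes. In IHCs, Cdh4 made up 52.1 ± 9.97% and Cdh2 37.5 ± 5.73% of the sum, followed by Cdh1 at 9.07 ± 4.96% and Cdh3 at 1.31 ± 1.399%. In OHCs, Cdh1 alone made up 84.1 ± 1.45%, with 7.55 ± 1.61% for Cdh4, 5.15 ± 1.21% for Cdh2 and 3.24 ± 0.835% for Cdh3. The share of Cdh1 was thus between 82.4% and 86.2% in every OHC library and at most 16.3% in any IHC library. A ratio inside a library does not depend on its size or on its ribosomal RNA, but it does depend on the gene lengths used. With the longest annotated transcript as the length, Cdh2 came first in IHCs at 48.3 ± 6.13% and Cdh4 second at 43.5 ± 9.31%, so the order of these genes is not settled, while Cdh1 still held 79.5 ± 1.55% in OHCs.

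**Figure D3:**
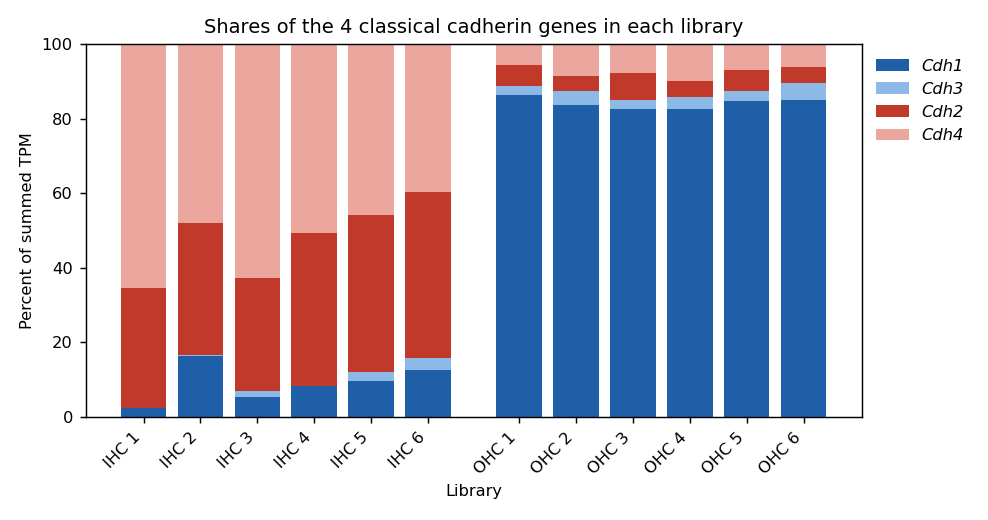
Percent of the summed TPM of Cdh1, Cdh3, Cdh2 and Cdh4 held by each gene, as 1 stacked bar per library. Cdh2 and Cdh4 (red shades) fill most of each IHC bar, and Cdh1 (dark blue) holds 82.4% to 86.2% of each OHC bar.

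Set against Cdh2 alone, Cdh1 was 18.5 ± 8.12% of the summed TPM of both genes in IHCs, with a range of 7.02% to 31.5% (11.9% with the longest transcript as the length). In OHCs it was 94.2 ± 1.29%, with a range of 92.1% to 95.6% (90.6% with the longest transcript). The summed TPM of the 4 cadherin genes was 173 ± 68.9 in IHCs and 679 ± 73.4 in OHCs, and the highest IHC library, at 241, lay below the lowest OHC library, at 561. Ribosomal RNA lowers every TPM, and without it these sums ran from 285 to 587 in IHCs and from 1472 to 1886 in OHCs, again without overlap.

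The catenins did not follow this difference. Ctnnb1 encodes beta-catenin, which binds cadherin tails and is also the effector of canonical Wnt signalling, and it lies on chromosome 9 from 120757422 to 120789579. It ran from 183 to 364 CPM in IHC libraries (median 251) and from 238 to 337 CPM in OHC libraries (median 260). The ranges overlapped almost fully. The log2 fold change was 0.04 (standard error 0.19, edgeR quasi-likelihood adjusted p = 0.935), and its 95% interval of 0.775-fold to 1.36-fold makes Ctnnb1 the member whose difference is bounded most closely. Per unit of summed cadherin TPM there was 0.463 ± 0.102 of Ctnnb1 in IHCs and 0.150 ± 0.0298 in OHCs, ranges that did not overlap. This ratio depends on the gene lengths, and with the longest transcript it was 0.563 ± 0.124 in IHCs and 0.228 ± 0.0453 in OHCs, again without overlap.

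Ctnna1 encodes alpha-E-catenin, the epithelial link to actin, and lies on chromosome 18 from 35226033 to 35387833. It ran from 34.5 to 87.1 CPM in IHC libraries (median 46.1) and from 30.2 to 103 CPM in OHC libraries (median 55.8), so that the cell types again overlapped. Its log2 fold change of 0.17 had a 95% interval of -0.53 to 0.87 (edgeR quasi-likelihood adjusted p = 0.810). Ctnnd1 encodes delta1-catenin, which binds the cadherin tail near the membrane and keeps cadherins at the cell surface. It lies on chromosome 2 from 84425959 to 84489326. It ran from 20.3 to 103 CPM in IHC libraries (median 48.2) and from 30.2 to 57.1 CPM in OHC libraries (median 37.8). The IHC libraries spread more widely than the OHC libraries, and the log2 fold change of -0.57 (95% interval -1.31 to 0.17) did not pass the threshold (edgeR quasi-likelihood adjusted p = 0.372). The level of Ctnnd1 is uncertain, because 37.6% of its exonic bases in this annotation are shared with the gene Gm28635 on the same strand, which had 0 counts in every library, and reads that lie within both genes are not counted for either.

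Nectins gave negative fitted values for Nectin1 and Nectin2, neither past the threshold. Nectin1, on chromosome 9 from 43655019 to 43743955, ran from 101 to 246 CPM in IHC libraries (median 215) and from 71.8 to 231 CPM in OHC libraries (median 107). The overlap came from IHC replicates 2 and 4 at 101 and 119 CPM and from OHC replicate 5 at 231 CPM, which stood apart from the other OHC libraries at 120 CPM or less. The log2 fold change of -0.66 (standard error 0.29, 95% interval -1.27 to -0.04) did not pass the threshold (edgeR quasi-likelihood adjusted p = 0.195). Without OHC replicate 5 it was -0.95 with an edgeR adjusted p of 0.0470, which is past the threshold. Nectin2, on chromosome 7 from 19450569 to 19484408, averaged 65.4 ± 23.7 CPM in the IHC libraries (20.8 to 90.3, median 70.5) and 32.7 ± 15.8 CPM in the OHC libraries (14.7 to 57.8, median 34.3). Of its IHC libraries, 5 were between 63.9 and 90.3 CPM, above the highest OHC library at 57.8 CPM, and replicate 1 was at 20.8 CPM. The log2 fold change of -0.999 (standard error 0.38, 95% interval -1.79 to -0.21) did not pass the threshold (edgeR quasi-likelihood adjusted p = 0.126), and without IHC replicate 1 it was -1.19 with an edgeR adjusted p of 0.0337. These calls thus turned on single libraries.

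Nectin3, on chromosome 16 from 46208069 to 46318888, ran from 14.8 to 76.2 CPM in IHC libraries (median 58.8) and from 38.1 to 79.8 CPM in OHC libraries (median 58.5), with overlap. Its log2 fold change was 0.16 (95% interval -0.58 to 0.90, edgeR quasi-likelihood adjusted p = 0.837), and without IHC replicate 1, which had the lowest value, it was -0.05. In TPM on the union of exons, Nectin1 was above Nectin3 in all 12 libraries, at 81.2% to 97.7% of the sum of both genes in IHCs and 78.6% to 88.9% in OHCs. Nectin1 therefore led Nectin3 in both kinds of hair cell, by a margin that overlapped between them. The size of this margin depends on the gene lengths. With the longest transcript, Nectin1 and Nectin3 averaged 70.9 ± 36.5 and 14.3 ± 9.20 TPM in IHCs, and 52.5 ± 15.9 and 16.7 ± 3.52 TPM in OHCs.

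Ordered by mean TPM on the union of exons, the OHC series began with Cdh1 at 571 ± 67.3, above Ctnnb1 at 102 ± 24.9 in all 6 libraries. Nectin1 (51.4 ± 15.3) and Cdh4 (50.8 ± 9.77) followed and did not differ beyond their spread, then Cdh2 (34.9 ± 9.20), Nectin2 (24.8 ± 12.4), Cdh3 (22.0 ± 6.72) and Ctnna1 (20.3 ± 10.8), of which the last 3 overlapped. Ctnnd1 (9.86 ± 1.69) and Nectin3 (9.31 ± 1.91) came last. Below Ctnnb1 this order depends on the length. With the longest transcript, Cdh2 (54.4 ± 13.8) came next after Ctnnb1 in OHCs, Ctnna1 (36.3 ± 19.0) passed Nectin2 and Cdh3, and Nectin3 (16.7 ± 3.52) lay above Ctnnd1 in all 6 libraries. In IHCs no gene stood apart at the top, since Cdh4 (87.8 ± 36.6), Ctnnb1 (77.4 ± 26.5), Nectin1 (68.9 ± 36.9) and Cdh2 (66.1 ± 30.4) overlapped. Cdh2 lay above Nectin2 (44.2 ± 23.0), and Nectin2 above Cdh1 (16.1 ± 9.50), in all 6 libraries. Cdh1, Ctnnd1 (14.1 ± 11.3) and Ctnna1 (13.1 ± 4.22) overlapped, and Nectin3 (7.94 ± 5.22) and Cdh3 (2.96 ± 3.36) were lowest. The IHC order also depends on the length. With the longest transcript, Ctnnb1 (115 ± 37.9) and Cdh2 (104 ± 45.5) came before Cdh4 (89.3 ± 35.6). Ctnna1 (23.7 ± 7.18) then lay above Cdh1 in 5 of 6 libraries, and Ctnnd1 (13.7 ± 10.8) came below Nectin3 (14.3 ± 9.20), with Cdh3 still lowest. Cdh1 thus moved from the sixth place in IHCs to the first in OHCs, and with the longest transcript as the length from the seventh to the first.

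**Figure D4:**
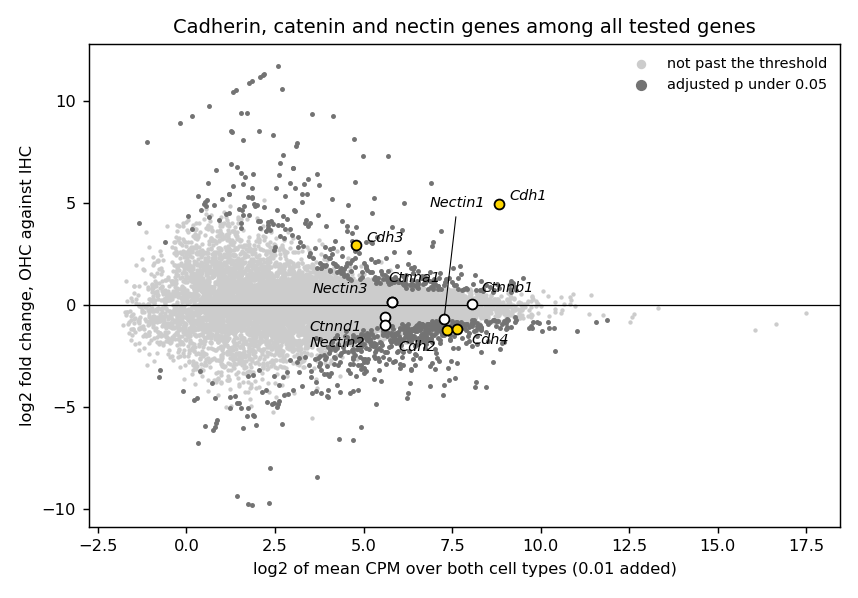
Log2 fold change of OHCs against IHCs against the log2 of the mean CPM of both cell types (with 0.01 added), for all 13269 genes tested (dark grey where the adjusted p is under 0.05) and the 10 genes (yellow where called, white where not). Cdh1 lies apart from genes of like level, and Ctnnb1 and Ctnna1 lie near 0.

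Transcripts of genes that work with the members were examined next. Of 84 genes on lists of catenin relatives, nectin ligands and afadin, junctional actin links, cadherin turnover, desmosomes, Cdh1 repressors and epithelial regulators, 61 were tested and 2 were called (3.28%, against 6.26% of all genes tested), both higher in IHCs, a share near that of all genes. DESeq2 called 5 as higher in IHCs and 3 as higher in OHCs, but it also called more of all genes, 2929 of 24096. The median log2 fold change of the 61 was -0.20. Both called genes are on the list of 19 actin links, 18 of which were tested. Actn4, an alpha-actinin that crosslinks actin, averaged 226 ± 75.5 CPM in IHC and 108 ± 36.9 CPM in OHC libraries, with overlapping libraries (log2 fold change -1.07, standard error 0.27, edgeR quasi-likelihood adjusted p = 0.0218). Lmo7, a junctional protein that binds afadin and alpha-actinin, had 626 ± 174 and 364 ± 73.5 CPM with no overlap (log2 fold change -0.78, standard error 0.20, edgeR quasi-likelihood adjusted p = 0.0228). Without 1 of OHC replicates 4, 5 or 6, the call of Lmo7 was lost, at an adjusted p of at most 0.0607, as was that of Actn4 without OHC replicate 2 (0.0572) or IHC replicate 5 (0.0547). With IHC replicates 1 and 6 and OHC replicate 3 left out together, Lmo7 was not called (0.0973).

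The other lists held no called gene, namely 0 of 7 tested catenin relatives, 0 of 5 nectin ligands and afadin, 0 of 13 turnover genes, 0 of 5 desmosomal genes, 0 of 4 repressors of Cdh1 and 0 of 9 epithelial regulators. A few of them are given for their role in the complex, chosen after their values were seen. Afdn, the afadin gene, averaged 566 ± 70.3 CPM in IHC and 559 ± 83.8 CPM in OHC libraries, and the 95% interval of its fold change was 0.773 to 1.26. Jup encodes plakoglobin, which can take the place of beta-catenin on a cadherin tail, and it had 337 ± 235 and 200 ± 26.9 CPM (log2 fold change -0.75, edgeR quasi-likelihood adjusted p = 0.159). Ctnna2, the neural alpha-catenin, had 16.5 ± 6.77 and 4.22 ± 2.83 CPM. Its log2 fold change of -1.96 just missed the threshold (edgeR quasi-likelihood adjusted p = 0.0593). Pkp4, a relative of delta1-catenin, lay in the other direction, at 233 ± 66.2 and 380 ± 78.8 CPM (log2 fold change 0.71, edgeR quasi-likelihood adjusted p = 0.0592). Of the repressors of Cdh1, Snai1, Snai2, Snai3, Twist1 and Twist2 were too low to be tested. Zeb1 had 4.53 ± 3.31 and 7.80 ± 8.33 CPM (edgeR quasi-likelihood adjusted p = 0.652). Zeb2 had 5.62 ± 10.4 and 0.412 ± 0.381 CPM (edgeR quasi-likelihood adjusted p = 0.0609), and its IHC mean rested on replicate 6 at 26.8 CPM, with the other IHC libraries between 0.562 and 3.55 CPM. The more abundant Tcf3 had 81.0 ± 56.8 and 39.7 ± 19.5 CPM (edgeR quasi-likelihood adjusted p = 0.132), with 194 CPM in IHC replicate 1, and Tcf4 had 157 ± 44.6 and 209 ± 61.9 CPM (edgeR quasi-likelihood adjusted p = 0.353). Epcam, an epithelial surface gene, had 101 ± 42.1 and 84.3 ± 15.3 CPM (edgeR quasi-likelihood adjusted p = 0.613).

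Around Cdh1 and Cdh3, 7 other protein-coding genes lie within 250000 bases of either gene, and 6 of them were tested. None was called, their log2 fold changes ran from -2.08 to 0.60, and the lowest edgeR quasi-likelihood adjusted p was 0.116. Zfp90, the gene nearest to Cdh3 on its other side at 71137 bases, averaged 17.2 CPM in IHC and 17.4 CPM in OHC libraries. Tango6, which begins 12806 bases beyond Cdh1, had 13.1 and 10.3 CPM. Both neighbouring cadherins were called as higher in OHCs. With 6.26% of all genes tested called, 0 of 6 is near that share. It does not show that the difference was limited to the cadherins. Of the 7 neighbours of Cdh4, all were tested and none was called, which is also near that share. Cdh2 has 0 protein-coding neighbours within this distance.

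The genes most like each cadherin over the 12 libraries were found by Pearson's r of log2 CPM, given as a description over libraries of 2 cell types. For Cdh1 they were Robo2 (r = 0.988), Vcan (0.978) and Insm2 (0.969), for Cdh3 Prkx (0.945), Prkaa2 (0.944) and D430041D05Rik (0.921), for Cdh2 Cfap126 (0.959), Fzd7 (0.955) and Ahdc1 (0.951), and for Cdh4 Gapdh (0.969), Dnm1 (0.946) and Mllt6 (0.934). Much of the likeness to Cdh1 lies in the step between cell types, since within cell types r was 0.660 for Robo2, 0.690 for Vcan and -0.01 for Insm2. For the genes most like the other 3 cadherins it was 0.743 to 0.915.

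Bulk libraries cannot tell fewer expressing cells from less RNA per cell, and some marker lists of other cell types moved with the cell type. Supporting cell markers summed to 320 to 769 CPM in IHC libraries and 100 to 249 CPM in OHC libraries, with 2 of 11 genes (Sox2, Gjb2) called as higher in IHCs. Markers of the greater epithelial ridge summed to 756 to 1912 and 158 to 690 CPM, with 2 of 4 tested genes (Otog, Tecta) called as higher in IHCs. These lists thus moved in the direction of Cdh2 and Cdh4. Lateral supporting cell markers summed to 17.3 to 315 CPM in IHC libraries and 241 to 377 CPM in OHC libraries. This sum moved in the direction of Cdh1 and Cdh3, but its genes did not all do so. Of 5 tested genes, 3 (Prox1, Fgfr3 and Hes5) had a log2 fold change above 0. Only Prox1, also known from OHCs, was called, at means of 28.6 and 217 CPM. Fgfr3 averaged 16.8 and 73.1 CPM (edgeR quasi-likelihood adjusted p = 0.0722). Its IHC replicate 6 was at 73.3 CPM, and the other IHC libraries were between 1.44 and 11.8 CPM. Within this list, Ngfr (26.3 and 3.64 CPM, edgeR quasi-likelihood adjusted p = 0.0605) and Emid1 (19.0 and 7.29 CPM, edgeR quasi-likelihood adjusted p = 0.305) went the other way. The IHC mean of Emid1 rested on replicate 6 at 78.9 CPM, with the other IHC libraries between 2.09 and 13.0 CPM. In the 3 IHC libraries with Cdh3 above 9 CPM, replicates 3, 5 and 6, this list summed to 40.0, 109 and 315 CPM, and in replicates 1, 2 and 4 to 17.3, 40.4 and 77.3 CPM. Endothelial markers summed to 0.523 to 13.0 and 17.0 to 235 CPM, and all 8 tested genes had a log2 fold change above 0. Of these, 6 were called as higher in OHCs, among them the cadherin gene Cdh5. Cldn5 was at 0 in all IHC libraries. The highest endothelial sum, 235 CPM, was in OHC replicate 3. The part of these cells in the differences was not tested.

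Of the remaining lists, 3 of 10 hair cell genes and 3 of 3 tested neuron genes (Nefl and Nefm, which hair cells also express, and Ntrk3) were called as higher in IHCs, and 0 of 8 mesenchyme, 0 of 5 glia, 0 of 3 pericyte and 0 of 1 macrophage genes were called. No erythroid gene was tested, and their sum was at most 3.20 CPM. When IHC replicates 1 and 6 and OHC replicate 3 were left out together, a choice made after the data were seen, the 4 cadherins were still called, with log2 fold changes of 4.92 for Cdh1, 3.12 for Cdh3, -1.22 for Cdh2 and -1.08 for Cdh4.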

How the data were processed

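Bulk RNA-seq of 12 libraries was analysed. The values the authors deposited are raw, unnormalized read counts for 55416 genes, with 5 summary lines in each file. The sources name Trimmomatic, a 2-pass STAR alignment to GRCm39 and HTSeq in intersection-nonempty mode with GENCODE vM27, but not their versions or the strand setting, so reads of opposite-strand genes may be lost. The summary lines, 24.2% to 46.1% of a file's reads, were left out. Reads carry no molecular identifiers, so copies made by amplification were counted too.

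Counts were tested in R 4.3.3 with edgeR 4.0.16 (filterByExpr by cell type with minimum count 10 and minimum total 15, TMM, glmQLFit, glmQLFTest), and DESeq2 1.42.0 was an alternative. Standard errors are the absolute log2 fold change over the square root of F. TPM used GENCODE vM39, which matched 98.8% of identifiers and 99.97% of counts, and whose positions are given. The fit was tested on simulated data, where it missed many of the planted changes, so a gene that was not called may still differ. Figures were drawn with matplotlib 3.10.9.

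The members and lists were chosen with earlier results of these data known. All 10 members are described in full, as are up to 5 genes per direction of each partner list past the threshold and the 3 genes most like each called member. Alternatives were the exact test of edgeR, DESeq2, RLE size factors, no filter, a filter of 10 counts in every library, no ribosomal RNA, the longest transcript as the length, a replicate block and leaving out each library.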

Additional observations from a re-analysis of the deposited data

Results flagged for a closer look

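Of 20 sets of 6 libraries examined (10 genes in each of the 2 cell types), 1 held a library far from the others by Dixon's test at the 95% level, and chance gives about 1 in 20. This was Nectin1 in OHC replicate 5, at 231 CPM, with the other 5 OHC libraries between 71.8 and 120 CPM. The gap was 0.694 of the range.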

How the results depend on the processing

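The directions of Cdh1, Cdh2, Cdh3 and Cdh4 held in every alternative that tested them, and Cdh1, Cdh2 and Cdh4 were called in all of these. With at least 10 counts required in every library, Cdh3 was not tested (IHC replicate 1 had 5), which left 1 member higher in OHCs. Leaving out each library in turn called 1 to 2 members as higher in OHCs and 2 to 3 as higher in IHCs, the third being Nectin2 without IHC replicate 1 and Nectin1 without OHC replicate 5. Changes near 0 turned sign without single libraries, over ranges of -0.0754 to 0.36 for Ctnna1, -0.0632 to 0.13 for Ctnnb1 and -0.0488 to 0.28 for Nectin3, of which Ctnnb1 was at -0.0632, -0.000168 and -0.04 without IHC replicate 6, OHC replicate 1 and OHC replicate 4. The causes were not tested.

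Of all genes, 324 were called as higher in OHCs and 506 as higher in IHCs (61.0% on the IHC side). The exact test of edgeR called 517 in OHCs, DESeq2 1590 and 1339 (45.7% on the IHC side), and the fit with no filter 918 and 893 (49.3%), these last 2 testing more genes, with the median log2 fold change of all genes moving from -0.04 to 0.12 and 0.11. Of the partner genes, 0 were called as higher in OHCs, against 3 by DESeq2, 2 with no filter, 1 with at least 10 counts in every library and 0 to 1 leaving out each library. As higher in IHCs, 2 were called, against 4 by the exact test, 5 by DESeq2, 1 with IHC replicates 1 and 6 and OHC replicate 3 left out together, which was added after the data were seen, and 1 to 3 leaving out each library. With the longest transcript as the length, Cdh1 was 90.6% of Cdh1 plus Cdh2 in OHCs and 11.9% in IHCs (94.2% and 18.5% on the union of exons).

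No pairing by library number was seen (r of same-numbered deviations -0.03 to 0.02, 0 of 6 over 0.1, and 0 of 6 IHC and 1 of 6 OHC libraries best matched by their own number). This cannot decide whether same-numbered pools shared pups, because shared pups need not leave a correlation that is visible here. A fit with the replicate block called 391 genes as higher in OHCs and 512 as higher in IHCs, and gave Cdh3 a log2 fold change of 4.15. In IHC replicate 1, with 15.3 reads per CPM, low levels are least precise.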
